A study of Mus musculus with 16 samples.

Results

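The dual-specificity MAP kinase phosphatases examined here were Dusp1, Dusp2, Dusp3, Dusp4, Dusp5, Dusp6, Dusp7, Dusp16 and Dusp22. They were chosen by gene symbol and make up 9 of the 54532 gene identifiers measured. All 9 passed a filter on low values, namely at least 1 FPKM in at least 4 of 16 libraries, which left 11654 genes for testing. FPKM are fragments per kilobase of exon, scaled to sequencing depth. RNA was sequenced from bone marrow-derived macrophages of FVB/N mice, grown from marrow for 5 to 7 days in medium with 20% serum and 30% L929 conditioned medium, a source of macrophage growth factor. The 4 groups of 4 libraries were cells labelled FOXO3-/- given 100 nM dexamethasone, FOXO3-/- cells given the vehicle DMSO, wild-type cells given 100 nM dexamethasone and wild-type cells given DMSO. Treatment lasted 24 h in every group. Dexamethasone is a synthetic agonist of the glucocorticoid receptor. Per its title, the study addressed the effect of FOXO3, a forkhead transcription factor, on signalling by that receptor. The labels do not say how the allele was made or whether replicates were separate animals or cultures. The p-values therefore reflect only library-to-library spread, and that spread may be technical.

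MAP kinases (ERK, JNK and p38) are switched on when a threonine and a tyrosine of their activation loop are both phosphorylated, and dual-specificity phosphatases switch them off by removing both phosphates. DUSP1, DUSP2, DUSP4 and DUSP5 are nuclear enzymes encoded by rapidly inducible genes, DUSP6 and DUSP7 are cytoplasmic and act on ERK, and DUSP16 acts mainly on JNK and p38. DUSP3 and DUSP22 are small atypical members without the MAP kinase-binding domain of the others. In macrophages DUSP1 limits p38-driven production of inflammatory cytokines, and it is a known glucocorticoid-induced gene.

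The sequences upstream of 3 of these genes are shown because they held a full cAMP response element (CRE, in Dusp1) or only its half-site (Dusp5 and Dusp16). Dusp2 held the half-site too, but after the start of transcription. No link between these letters and the response to dexamethasone was tested. Promoter windows reached from 250 bases before to 50 bases after the start of transcription and came from RefSeq on GRCm38.p6, which matched 8 of the 9 genes (Dusp4 was not among them). For Dusp3, Dusp7 and Dusp16 the start used is not the most upstream one that RefSeq annotates. Each stretch runs 5′ to 3′ along the gene's own strand, and capitals mark TGACGTCA or its half-site TGACG on either strand. The Dusp1 stretch lies at chr17:26508573-26508672 on the minus strand, 200 to 101 bases before the start. The Dusp16 stretch lies at chr6:134792669-134792728 on the minus strand and the Dusp5 stretch at chr19:53529045-53529104 on the plus strand, both 100 to 41 bases before the start.
Dusp1: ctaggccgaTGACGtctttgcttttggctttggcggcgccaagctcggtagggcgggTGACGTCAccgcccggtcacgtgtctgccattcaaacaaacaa
Dusp16: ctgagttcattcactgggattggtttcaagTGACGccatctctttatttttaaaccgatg
Dusp5: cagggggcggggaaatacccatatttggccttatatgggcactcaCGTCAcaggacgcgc

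The full CRE, TGACGTCA, stood 143 to 136 bases before the Dusp1 start, in 1 of 8 windows, against 1.79% of 32851 RefSeq promoter windows of the same length. The half-site TGACG, which the full element contains, was in 4 of 8 windows (Dusp1, Dusp2, Dusp5 and Dusp16), against 20.8% of all windows. The GC box GGGCGG was in 7 of 8 windows, against 35.7% of all, and the CCAAT box in 4 of 8, against 37.4%. No member window held the AP-1 element TGANTCA, the glucocorticoid receptor half-site AGAACA, a reduced receptor element (GNACA and TGTNC, 3 bases apart), the FOXO core GTAAACA or the TATA box TATAAA. These letters were in 7.81%, 19.0%, 0.475%, 3.65% and 13.6% of all windows. Both strands were searched. A match is a description and not a binding site, and no match says only that these letters are not in this window. The windows are of the reference strain, not of FVB/N.

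Reads on genes, recovered from the FPKM, came to 16886745 in the library with the fewest and 20584573 in the library with the most. In all libraries but wild-type dexamethasone replicate 2 these totals exceeded the sequencing depth to which the FPKM were scaled. The totals therefore cannot be read as sequencing depth, and the cause of the excess was not tested. At 1 FPKM, a transcript of 2 kb corresponded to 32.9 to 39.7 reads. All 10 macrophage markers were detected, with summed levels of 13296 to 15879 FPKM in knockout-labelled dexamethasone, 13504 to 15868 in knockout-labelled vehicle, 9889 to 13113 in wild-type dexamethasone and 13117 to 14051 FPKM in wild-type vehicle libraries. Lyz2, at a mean of 10398 FPKM, carried most of that sum. Adgre1, which codes for the macrophage surface protein F4/80, fell with dexamethasone by 0.86 on the log2 scale in knockout-labelled cells (limma adjusted p = 0.00547) and by 1.21 in wild-type cells (limma adjusted p = 0.000679). It was higher in knockout-labelled than in wild-type cells under dexamethasone (1.42, limma adjusted p = 0.00058) and in vehicle (1.07, limma adjusted p = 0.0101), and its part in the results on the phosphatases was not tested. Foxo3 itself did not check the labels. It averaged 24.5 ± 1.44 FPKM in knockout-labelled and 23.2 ± 1.07 FPKM in wild-type dexamethasone libraries (SD, n = 4 each, exact two-sided permutation p = 0.171), and 23.8 ± 0.635 FPKM in knockout-labelled and 24.7 ± 1.72 FPKM in wild-type vehicle libraries (exact two-sided permutation p = 0.371, the smallest possible being 0.0286). Which part of the gene was deleted is not given, so a whole-gene value cannot show its loss, and every genotype direction rests on the labels. Dexamethasone raised Fkbp5, a standard receptor target, by 5.70 on the log2(FPKM + 1) scale in knockout-labelled cells (limma adjusted p = 4.39e-16) and by 5.24 in wild-type cells (limma adjusted p = 1.49e-15).

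Fibroblast and stromal transcripts differed between libraries within groups. A stromal score was taken as the average of log2(FPKM + 1) over 10 genes (Col1a1, Col1a2, Col3a1, Dcn, Lum, Pdgfra, Pdgfrb, Fbn1, Thy1 and Postn). It was 0.47, 0.49, 1.87 and 2.14 in knockout-labelled dexamethasone replicates 1 to 4, and 1.17, 0.36, 0.26 and 3.54 in knockout-labelled vehicle replicates. In wild-type dexamethasone replicates it was 4.56, 4.12, 4.47 and 1.82, and in wild-type vehicle replicates 3.86, 3.88, 1.30 and 3.98. The 10 genes summed to 4.48 to 66.7 FPKM in knockout-labelled dexamethasone, 2.10 to 287 in knockout-labelled vehicle, 48.0 to 807 in wild-type dexamethasone and 22.1 to 413 FPKM in wild-type vehicle libraries, and none was at 0 in all libraries of a group. Knockout-labelled vehicle replicate 4, wild-type dexamethasone replicate 4 and wild-type vehicle replicate 3 lay apart from their groups. In bulk RNA, fewer cells of a type and less RNA per cell cannot be told apart. Neutrophil, B-cell, T-cell, dendritic, mast and erythroid marker lists summed to at most 4.68 FPKM in any library, with Ly6g at 0 in every library. Endothelial markers summed to at most 14.0 FPKM and megakaryocyte markers to between 26.8 and 117 FPKM. Nearly all of the megakaryocyte sum was Pf4 (mean 57.2 FPKM), with Itga2b at a mean of 0.146 FPKM and Gp9 at 0.061 FPKM.

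**Figure D1:**
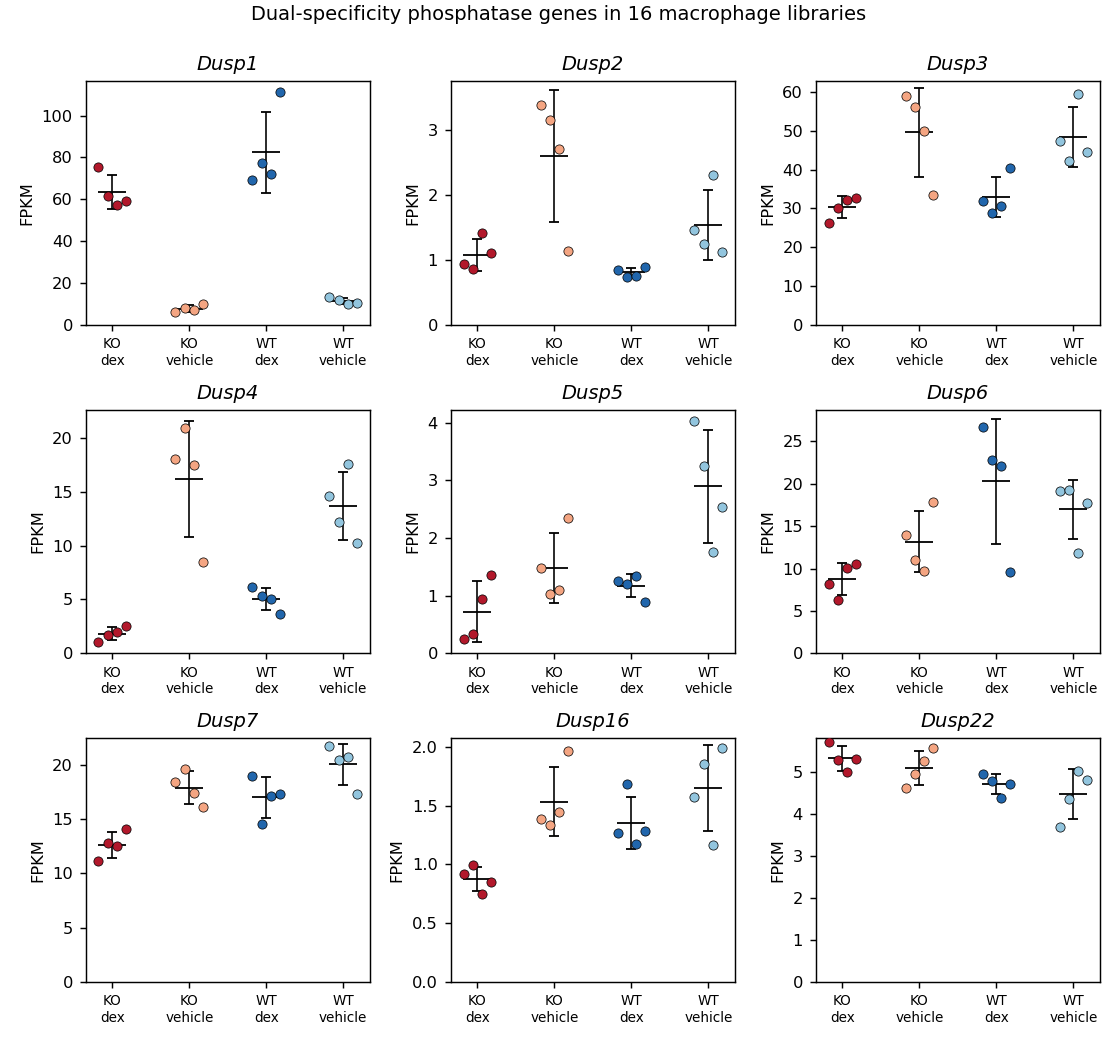
FPKM of each of the 9 phosphatase genes (1 panel each, vertical axis in FPKM) in every library (points), by group on the horizontal axis, with bars at the group mean. Dusp1 is high in both dexamethasone groups (57.4 FPKM or more) and at most 13.2 FPKM in both vehicle groups, while Dusp4 shows the opposite order, lowest in knockout-labelled dexamethasone libraries.

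Levels per length differed widely between the genes. In wild-type vehicle libraries Dusp3 stood highest by mean FPKM, followed by Dusp7, Dusp6, Dusp4, Dusp1, Dusp22, Dusp5, Dusp16 and Dusp2. The ranges of neighbours in that order overlapped except between Dusp3 and Dusp7 and between Dusp1 and Dusp22. With dexamethasone Dusp1 took first place in both genotypes, above Dusp3 with no overlap. Dusp4 stood below Dusp22 in knockout-labelled dexamethasone libraries, with no overlap, and above it in wild-type dexamethasone libraries, where both ranges overlapped. By mean over all libraries Dusp1 and Dusp3 lay at the 89.8th and 89.6th percentile of the genes tested, and Dusp5, Dusp2 and Dusp16 at the 15.2th, 14.4th and 12.2th. The last 3 genes passed 1 FPKM in only 12, 10 and 12 of 16 libraries.

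In knockout-labelled macrophages dexamethasone raised Dusp1 about 8-fold and lowered Dusp4 about 9-fold, with smaller falls of Dusp2, Dusp3, Dusp7 and Dusp16. In wild-type macrophages it raised Dusp1 about 7-fold and lowered Dusp4, Dusp5 and Dusp3. By limma with Benjamini-Hochberg adjustment over all 11654 genes, 6 of the 9 genes changed in knockout-labelled cells (1 higher, 5 lower), where 39.1% of all genes tested changed (15% higher, 24.1% lower). In wild-type cells 4 of 9 changed (1 higher, 3 lower), where 30.1% of all genes tested changed (11.9% higher, 18.2% lower). The median difference of the 9 genes was -0.53 in knockout-labelled and -0.23 in wild-type cells, beside -0.055 and -0.018 for all genes tested. Differences are on the log2(FPKM + 1) scale, which understates the change of low genes.

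Dusp1 (chr17:26505591-26508472, minus strand, RefSeq on GRCm38), whose product acts in the nucleus on p38, JNK and ERK, was the single gene of the set that rose. It measured 75.6, 61.7, 57.4 and 59.1 FPKM in knockout-labelled dexamethasone libraries, against 5.92, 8.26, 6.88 and 10.1 FPKM in knockout-labelled vehicle libraries. The wild-type values were 69.1, 77.3, 72.0 and 111 FPKM with dexamethasone, against 13.2, 12.1, 9.70 and 10.3 FPKM with vehicle. No treated library came near an untreated one in either genotype. The ratio of means was 8.14 in knockout-labelled and 7.28 in wild-type cells. On the log2 scale Dusp1 rose by 2.89 ± 0.16 in knockout-labelled cells (SE, limma adjusted p = 1.6e-08) and by 2.74 ± 0.16 in wild-type cells (limma adjusted p = 3.65e-08). These values rested on 275 to 5204 reads per library. In GENCODE M21 an exon of Ergic1 (mean 15.6 FPKM) on the opposite strand overlaps an exon of Dusp1. The deposited Dusp1 values correspond to 2697 exonic bases, against 3311 in GENCODE M21, so it is not known whether that exon was counted.

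Dusp4 (chr8:34807297-34819894, plus strand, GENCODE M21 on GRCm38, as for the genes that follow), a nuclear phosphatase of ERK and JNK, had the steepest fall. It measured 1.04, 1.69, 1.97 and 2.52 FPKM in knockout-labelled dexamethasone libraries, against 18.0, 20.97, 17.5 and 8.46 FPKM in knockout-labelled vehicle libraries. Wild-type cells had 6.14, 5.36, 5.04 and 3.62 FPKM with dexamethasone, against 14.6, 12.2, 17.6 and 10.3 FPKM with vehicle. The 4 groups fell into 3 separate bands, with both vehicle groups overlapping at the top, wild-type dexamethasone below them and knockout-labelled dexamethasone lowest. The mean was 8.98 times lower with dexamethasone in knockout-labelled cells and 2.71 times lower in wild-type cells. By limma the log2 difference was -2.58 ± 0.25 in knockout-labelled cells (adjusted p = 1.9e-06) and -1.27 ± 0.25 in wild-type cells (adjusted p = 0.00131).

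Dusp2 (chr2:127336159-127338376, plus strand), a nuclear phosphatase of ERK and p38 best known from lymphocytes, was near the detection filter. It measured 0.941, 0.859, 1.42 and 1.11 FPKM in knockout-labelled dexamethasone libraries, against 3.39, 3.16, 2.70 and 1.14 FPKM in knockout-labelled vehicle libraries. Treated wild-type libraries had 0.850, 0.741, 0.751 and 0.892 FPKM, against 1.46, 1.24, 2.31 and 1.12 FPKM in untreated wild-type libraries. The knockout-labelled ranges overlapped through vehicle replicate 4, while the wild-type ranges were separate. The gene fell by 0.74 ± 0.20 on the log2 scale in knockout-labelled cells (SE, limma adjusted p = 0.00762). In wild-type cells the difference of -0.47 ± 0.20 did not pass (limma adjusted p = 0.0884), but passed without the 3 libraries apart in stromal transcripts (adjusted p = 0.0269) and without knockout-labelled vehicle replicate 4 (adjusted p = 0.015). Leaving out a library outside the groups compared, here and below, keeps the difference and changes only the spread shared by all groups. Dusp2 values rested on only 28 to 117 reads per library.

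Dusp5 (chr19:53529109-53542431, plus strand) codes for an ERK-specific nuclear phosphatase. It measured 0.254, 0.337, 0.934 and 1.36 FPKM in knockout-labelled dexamethasone libraries, against 1.48, 1.03, 1.09 and 2.34 FPKM in knockout-labelled vehicle libraries. Among wild-type libraries the values were 1.25, 1.20, 1.35 and 0.886 FPKM with dexamethasone, against 4.03, 3.25, 1.76 and 2.53 FPKM with vehicle. The wild-type groups did not overlap, and the knockout-labelled groups did. The gene fell by 0.81 ± 0.22 on the log2 scale in wild-type cells (SE, limma adjusted p = 0.0136). In knockout-labelled cells the difference of -0.55 ± 0.22 did not pass (limma adjusted p = 0.0664), but passed with the stromal score as a covariate (adjusted p = 0.00411), without knockout-labelled dexamethasone replicate 4 (adjusted p = 0.0221) and without wild-type vehicle replicate 3 (adjusted p = 0.0483). The highest knockout-labelled libraries in each treatment were also those with the highest stromal scores of their group. Dusp5 rested on 11 to 177 reads per library.

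The cytoplasmic ERK phosphatases were Dusp6 (chr10:99263231-99267489, plus strand) and Dusp7 (chr9:106368632-106375724, plus strand). Dusp6 measured 8.15, 6.30, 10.1 and 10.5 FPKM in knockout-labelled dexamethasone libraries, against 14.0, 11.1, 9.73 and 17.9 FPKM in knockout-labelled vehicle libraries. The wild-type values were 26.6, 22.8, 22.1 and 9.64 FPKM with dexamethasone, against 19.1, 19.2, 11.8 and 17.8 FPKM with vehicle. Treated and untreated ranges overlapped in both genotypes, and neither response passed (limma log2 difference -0.53 ± 0.27, adjusted p = 0.141 in knockout-labelled cells, and 0.18 ± 0.27, adjusted p = 0.657 in wild-type cells). With the stromal score as a covariate the knockout-labelled difference of -0.50 passed (adjusted p = 0.0026), as it did without wild-type dexamethasone replicate 4 (adjusted p = 0.0432).

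Dusp7 measured 11.1, 12.8, 12.5 and 14.1 FPKM in knockout-labelled dexamethasone libraries, against 18.4, 19.7, 17.4 and 16.1 FPKM in knockout-labelled vehicle libraries. Wild-type cells had 19.0, 14.5, 17.1 and 17.3 FPKM with dexamethasone, against 21.7, 20.4, 20.7 and 17.3 FPKM with vehicle. All treated knockout-labelled libraries lay under all untreated ones, whereas the wild-type ranges overlapped. The gene fell by 0.47 ± 0.093 on the log2 scale in knockout-labelled cells (SE, limma adjusted p = 0.00109), and the wild-type difference was -0.23 ± 0.093 (limma adjusted p = 0.079). The wild-type difference passed without wild-type dexamethasone replicate 1 (adjusted p = 0.0489) and without wild-type vehicle replicate 4 (adjusted p = 0.033).

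Dusp16 (chr6:134715468-134792625, minus strand), the JNK and p38 phosphatase, measured 0.915, 0.990, 0.747 and 0.846 FPKM in knockout-labelled dexamethasone libraries, against 1.38, 1.33, 1.45 and 1.96 FPKM in knockout-labelled vehicle libraries. Treated wild-type libraries had 1.27, 1.68, 1.17 and 1.29 FPKM, against 1.57, 1.86, 1.17 and 1.99 FPKM in untreated wild-type libraries. The knockout-labelled groups were separate, and the wild-type groups overlapped. The gene fell by 0.43 ± 0.11 on the log2 scale in knockout-labelled cells (SE, limma adjusted p = 0.0079), and the wild-type difference was -0.16 ± 0.11 (limma adjusted p = 0.307). With array weights the wild-type difference was -0.28 and passed (adjusted p = 0.0176).

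Dusp3 (chr11:101971143-101987013, minus strand), an atypical phosphatase that acts on ERK and JNK, measured 26.3, 30.2, 32.3 and 32.7 FPKM in knockout-labelled dexamethasone libraries, against 59.0, 56.2, 50.1 and 33.4 FPKM in knockout-labelled vehicle libraries. Among wild-type libraries the values were 32.0, 28.9, 30.5 and 40.4 FPKM with dexamethasone, against 47.5, 42.2, 59.6 and 44.6 FPKM with vehicle. Treated and untreated ranges did not overlap in either genotype, though vehicle replicate 4 of the knockout-labelled cells stood just above the treated ones. The gene fell by 0.66 ± 0.16 on the log2 scale in knockout-labelled cells (SE, limma adjusted p = 0.00477) and by 0.54 ± 0.16 in wild-type cells (limma adjusted p = 0.0205). The wild-type call was lost without wild-type dexamethasone replicate 2 (adjusted p = 0.0593) and without wild-type vehicle replicate 3 (adjusted p = 0.0656).

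Dusp22 (chr13:30659999-30711231, plus strand), a small phosphatase that acts on the JNK pathway, had similar levels in all 4 groups. It averaged 5.32 ± 0.294 FPKM in knockout-labelled dexamethasone and 5.09 ± 0.402 FPKM in knockout-labelled vehicle libraries (SD, n = 4 each). In wild-type cells it averaged 4.71 ± 0.242 FPKM with dexamethasone and 4.46 ± 0.587 FPKM with vehicle (SD, n = 4 each). Its response did not pass in either genotype (limma log2 difference 0.05 ± 0.077, adjusted p = 0.627 in knockout-labelled cells, and 0.07 ± 0.077, adjusted p = 0.541 in wild-type cells).

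**Figure D2:**
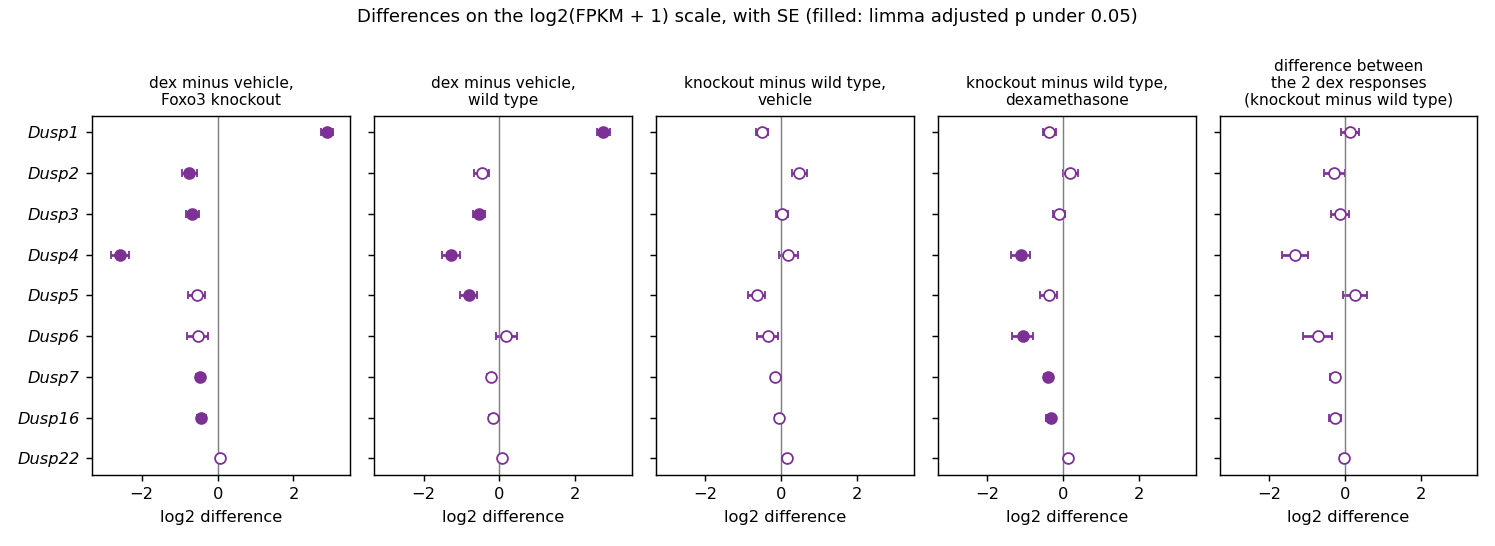
Differences on the log2(FPKM + 1) scale (horizontal axis) with their SE for the 9 genes (vertical axis) in 5 comparisons, from left to right dexamethasone minus vehicle in knockout-labelled and in wild-type cells, knockout-labelled minus wild type in vehicle and under dexamethasone, and the difference between both dexamethasone responses. Filled points had a limma adjusted p under 0.05. Dusp1 lies far right in both response panels (2.89 and 2.74), Dusp4 far left, and no point is filled in the vehicle panel or in the last one.

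The make-up of the set's summed transcript level changed with treatment. The 9 genes summed to 125 ± 4.54 FPKM in knockout-labelled dexamethasone and 115 ± 14.1 FPKM in knockout-labelled vehicle libraries (SD, n = 4 each). In wild-type cells they summed to 166 ± 16.4 FPKM with dexamethasone and 121 ± 8.81 FPKM with vehicle (SD, n = 4 each). Dusp1 made up 46.3% to 58.2% of the sum in knockout-labelled dexamethasone libraries and 4.69% to 10.4% in knockout-labelled vehicle libraries. Its share was 42.8% to 58.5% in wild-type dexamethasone and 7.48% to 10.4% in wild-type vehicle libraries. The other 8 genes together summed to 61.6 ± 6.32 FPKM with dexamethasone and 108 ± 15.4 FPKM with vehicle in knockout-labelled cells. In wild-type cells they summed to 83.4 ± 6.06 FPKM with dexamethasone and 110 ± 8.79 FPKM with vehicle. These sums are of transcript levels and say nothing of enzyme activity.

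**Figure D3:**
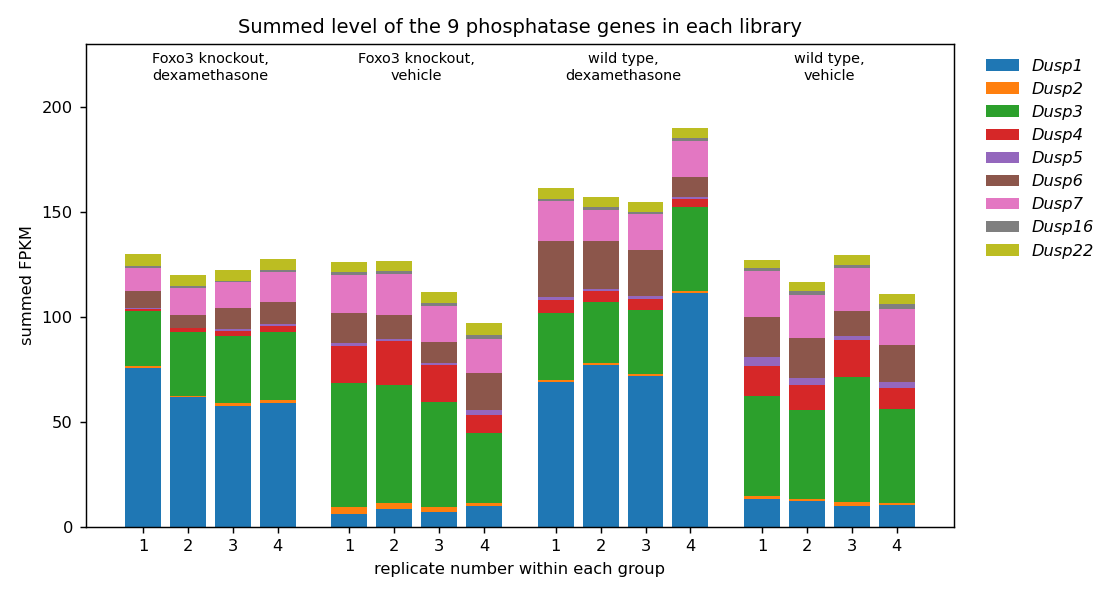
Summed FPKM of the 9 genes (vertical axis) in each of the 16 libraries (bars, by group), stacked by gene. Dusp1 makes up between 42.8% and 58.5% of the bar in every dexamethasone library and at most 10.4% in every vehicle library.

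In vehicle no difference between the genotypes passed for any of the 9 genes. By limma 0 of 9 passed, where 4.68% of all genes tested passed (3.37% higher, 1.3% lower), and 3 had an unadjusted p under 0.05 (Dusp1, Dusp5 and Dusp2). That unadjusted threshold was also met by 30 of the 100 tested pathway genes described below, and the share of all genes was not counted. The log2 difference was -0.50 ± 0.16 for Dusp1 (limma adjusted p = 0.0957), -0.64 ± 0.22 for Dusp5 (limma adjusted p = 0.121) and 0.47 ± 0.20 for Dusp2 (limma adjusted p = 0.186). Knockout-labelled and wild-type ranges overlapped for all 9 genes, but the share of all genes tested whose ranges overlapped was not counted. The limma voom fit on reads recovered from the FPKM called 0 of 9 as well. Without the 3 libraries apart in stromal transcripts 6 of 9 passed, but calls over all genes tested rose as well, to 3958 from 545. By limma Dusp2 (0.84, adjusted p = 8.32e-05), Dusp4 (0.58, adjusted p = 0.0194) and Dusp3 (0.29, adjusted p = 0.0221) were then higher in knockout-labelled cells. Dusp1 (-0.69, adjusted p = 0.000965), Dusp5 (-0.95, adjusted p = 0.00413) and Dusp6 (-0.66, adjusted p = 0.00642) were lower there. Single libraries mattered as well. Dusp1 passed without knockout-labelled vehicle replicate 4 (adjusted p = 0.0298), wild-type dexamethasone replicate 4 (adjusted p = 0.0417) or wild-type vehicle replicate 3 (adjusted p = 0.0492). Dusp5 passed without the first or the last of these (adjusted p = 0.0404 and 0.0349), and Dusp2 without the first (adjusted p = 0.00935). Wild-type dexamethasone replicate 4 is not in the vehicle comparison, so leaving it out changed the shared spread and not the difference. Without the 3 libraries together, the remaining vehicle libraries differed in stromal score, which was at most 1.17 in knockout-labelled and at least 3.86 in wild-type libraries, so that in this subset stromal transcripts and genotype cannot be told apart. With the stromal score as a covariate in all libraries, none of the 9 passed, as in the main fit. By limma Dusp1 was then at -0.52 (adjusted p = 0.191), Dusp5 at -0.21 (adjusted p = 0.561) and Dusp2 at 0.20 (adjusted p = 0.673). The score was itself mostly higher in wild-type libraries, which limits what this fit can separate.

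Under dexamethasone 4 of the 9 genes were lower in knockout-labelled than in wild-type cells and 0 were higher, where 26.7% of all genes tested differed (14.3% higher, 12.4% lower). Dusp4 averaged 1.81 ± 0.614 FPKM in knockout-labelled and 5.04 ± 1.06 FPKM in wild-type dexamethasone libraries (SD, n = 4 each), with no overlap and a log2 difference of -1.12 ± 0.25 (limma adjusted p = 0.00643). Dusp7 averaged 12.6 ± 1.22 FPKM in knockout-labelled and 17.0 ± 1.85 FPKM in wild-type dexamethasone libraries, with no overlap and a difference of -0.40 ± 0.093 (limma adjusted p = 0.00836). Wild-type dexamethasone replicate 4, with a stromal score of 1.82, had 3.62 FPKM of Dusp4 and 17.3 FPKM of Dusp7. Knockout-labelled dexamethasone replicates 3 and 4, with scores of 1.87 and 2.14, had 1.97 and 2.52 FPKM of Dusp4 and 12.5 and 14.1 FPKM of Dusp7.

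Dusp6 averaged 8.75 ± 1.93 FPKM in knockout-labelled and 20.3 ± 7.38 FPKM in wild-type dexamethasone libraries (SD, n = 4 each), a log2 difference of -1.06 ± 0.27 (limma adjusted p = 0.0133). The ranges overlapped through wild-type dexamethasone replicate 4, which at 9.64 FPKM lay within the knockout-labelled range of 6.30 to 10.5 FPKM. That library had a stromal score of 1.82, close to the 1.87 and 2.14 of knockout-labelled replicates 3 and 4, where Dusp6 stood at 10.1 and 10.5 FPKM. With the stromal score as a covariate the difference was -0.31 and did not pass (limma adjusted p = 0.233). Without the 3 libraries apart it was -1.37 (limma adjusted p = 1.2e-05). In that subset the score of dexamethasone libraries was at most 2.14 in knockout-labelled and at least 4.12 in wild-type cells. There stromal transcripts and genotype cannot be told apart.

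Dusp16 averaged 0.875 ± 0.103 FPKM in knockout-labelled and 1.35 ± 0.224 FPKM in wild-type dexamethasone libraries, with no overlap. Its log2 difference of -0.32 ± 0.11 was just past the threshold (limma adjusted p = 0.0478). The call was lost without 13 of the 16 libraries in turn (adjusted p up to 0.119) and with the stromal covariate (-0.16, adjusted p = 0.519). Dusp22 was at 5.70, 5.28, 4.99 and 5.29 FPKM in knockout-labelled and at 4.95, 4.79, 4.38 and 4.72 FPKM in wild-type dexamethasone libraries. Those ranges did not overlap, but the log2 difference of 0.15 ± 0.077 did not pass (limma adjusted p = 0.166). Dusp1, Dusp2, Dusp3 and Dusp5 did not pass either, with limma adjusted p of 0.12, 0.482, 0.648 and 0.22.

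**Figure D4:**
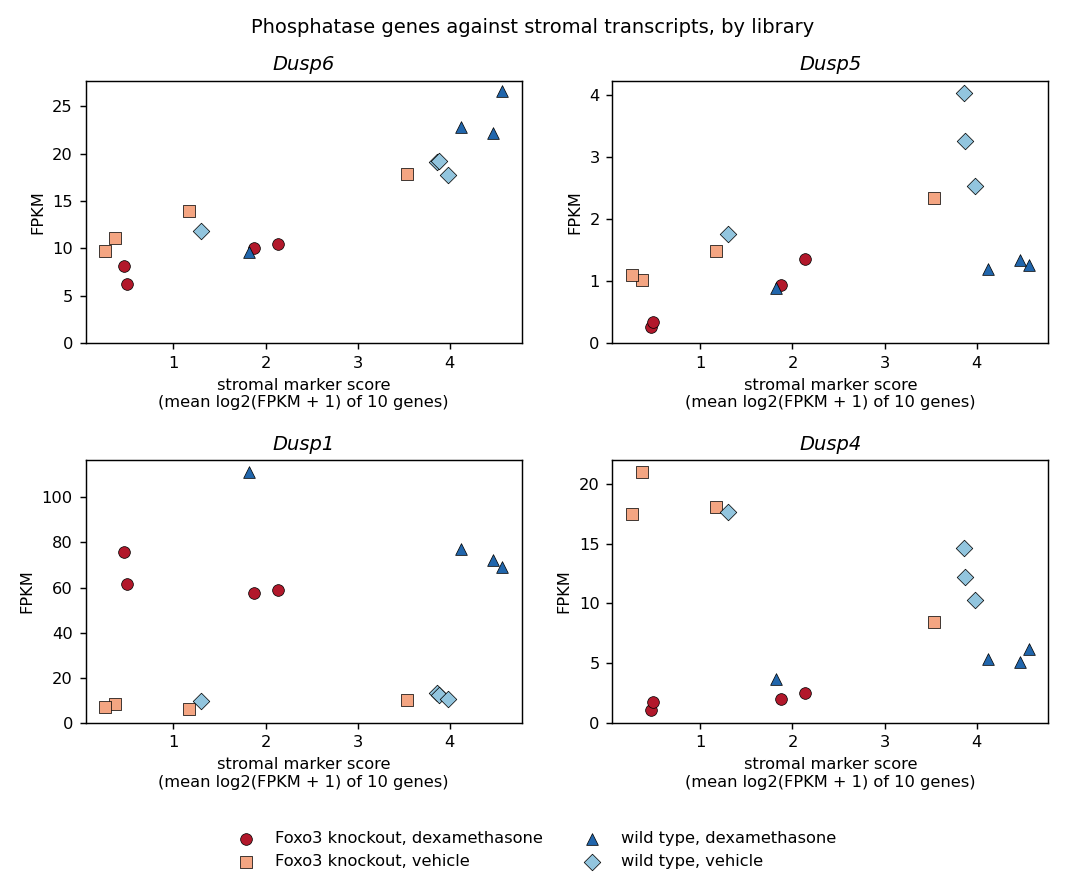
FPKM of 4 phosphatase genes (vertical axes) against the stromal score on the log2 scale, averaged over 10 markers (horizontal axis), in the 16 libraries, with group shown by the marker. Dusp6 is higher where the score is higher, and wild-type dexamethasone replicate 4 (score 1.82, 9.64 FPKM) lies beside the knockout-labelled dexamethasone libraries.

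Within groups, Dusp6 and Dusp5 deviated from their group means along with the stromal score (Pearson r = 0.914 and 0.84 over 16 libraries, given as a description), as did Dusp16 to a lesser degree (r = 0.549). Dusp3 and Dusp2 deviated the opposite way (r = -0.711 and -0.635). The r of Dusp1, Dusp7 and Dusp22 was -0.0429, -0.156 and -0.154. For Dusp4 the pooled r of -0.286 joins opposite orders. Among vehicle libraries Dusp4 was lowest where the score was highest (8.46 FPKM in knockout-labelled replicate 4, and 10.3 FPKM in wild-type replicate 4). Among dexamethasone libraries it was highest where the score was highest (2.52 FPKM in knockout-labelled replicate 4, and 6.14 FPKM in wild-type replicate 1). The part of stromal cells in these levels was not tested.

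No difference in the size of the dexamethasone response between genotypes passed for the 9 genes by limma's interaction term, where 0.129% of all genes tested passed (0.0601% higher, 0.0686% lower), and 1 of 9 had an unadjusted p under 0.05. That gene was Dusp4, whose fall was deeper in knockout-labelled cells by 1.31 ± 0.35 on the log2 scale (limma adjusted p = 0.171). The same unadjusted threshold was met by 16 of the 100 tested pathway genes described below, and the share of all genes was not counted. The Dusp4 difference passed without knockout-labelled vehicle replicate 4 (-1.57, adjusted p = 0.0273), without wild-type dexamethasone replicate 4 (-1.43, adjusted p = 0.047) and without the 3 libraries apart (-1.82, adjusted p = 0.00124). Without those 3 libraries stromal transcripts and genotype cannot be told apart in either treatment. Dusp1 had an interaction of 0.15 ± 0.23 (limma adjusted p = 0.831), which was 0.48 without the 3 libraries (adjusted p = 0.12) and passed at 0.55 with array weights (adjusted p = 0.047). With array weights Dusp4 (-1.69, adjusted p = 0.00148), Dusp6 (-0.91, adjusted p = 0.034) and Dusp2 (-0.62, adjusted p = 0.0422) passed too. Calls over all genes tested then rose as well, to 1391 from 15. The limma voom fit on recovered reads called 0 of 9.

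Kinases and targets around these phosphatases were described from lists of the pathway. Their counts stand beside all genes tested, of which 15% rose and 24.1% fell in knockout-labelled cells and 11.9% rose and 18.2% fell in wild-type cells. Shares of all genes at an unadjusted p under 0.05 were not counted. Of the MAP kinase kinase kinases, at the top of the cascades, 6 of 14 rose and 1 fell in knockout-labelled cells, and 5 rose and 1 fell in wild-type cells. The steepest rise was of Map3k6, a stress-activated kinase, which averaged 15.3 ± 1.75 FPKM with dexamethasone and 0.605 ± 0.103 FPKM with vehicle in knockout-labelled cells (log2 difference 3.34 ± 0.11, limma adjusted p = 6.06e-11). In wild-type cells it averaged 13.3 ± 2.34 FPKM with dexamethasone and 0.889 ± 0.119 FPKM with vehicle (2.91 ± 0.11, limma adjusted p = 4.43e-10). With vehicle Map3k6 reached at most 0.686 FPKM (knockout-labelled) and 1.07 FPKM (wild type), so it passed the filter through its dexamethasone libraries. One tier down, 4 of 6 tested MAP kinase kinases fell in knockout-labelled cells, among them Map2k3, an activator of p38 (-0.48, limma adjusted p = 0.00138), and 0 of 6 passed in wild-type cells (2 at an unadjusted p under 0.05). Of 7 tested MAP kinases, 1 rose and 3 fell in knockout-labelled cells, and 1 rose and 1 fell in wild-type cells. Mapk14, which codes for p38 alpha, was the one that rose in both (0.24 and 0.30).

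Of 9 tested kinases that MAP kinases activate, 2 rose and 4 fell in knockout-labelled cells, where 39.1% of all genes changed. In wild-type cells 0 rose and 6 fell, where 30.1% of all genes changed. Mapkapk2, the p38-activated kinase that controls cytokine mRNA decay, averaged 67.3 ± 2.75 FPKM with dexamethasone and 128 ± 11.2 FPKM with vehicle in knockout-labelled cells (limma log2 difference -0.91 ± 0.066, adjusted p = 1.38e-07). In wild-type cells it averaged 74.2 ± 4.21 FPKM with dexamethasone and 110 ± 4.53 FPKM with vehicle (-0.57 ± 0.066, adjusted p = 2.06e-05). Of the other phosphatases of MAP kinases, 1 of 6 rose and 2 fell in knockout-labelled cells, and 2 rose and 1 fell in wild-type cells. Ptpn7, a leukocyte tyrosine phosphatase of ERK and p38, fell by 1.22 in knockout-labelled (limma adjusted p = 9.73e-06) and by 1.37 in wild-type cells (limma adjusted p = 5.59e-06).

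Of 16 tested immediate early and ERK-induced genes, 2 rose and 8 fell in knockout-labelled cells, where 15% of all genes rose and 24.1% fell. In wild-type cells 1 rose and 6 fell, where 11.9% of all genes rose and 18.2% fell. The list medians were -0.67 and -0.31, beside -0.055 and -0.018 for all genes tested. Egr2, a zinc-finger factor induced by growth factors, averaged 1.43 ± 0.323 FPKM with dexamethasone and 16.9 ± 4.87 FPKM with vehicle in knockout-labelled cells (limma log2 difference -2.84 ± 0.21, adjusted p = 1.87e-07). In wild-type cells it averaged 1.92 ± 0.331 FPKM with dexamethasone and 14.0 ± 4.35 FPKM with vehicle (-2.33 ± 0.21, adjusted p = 2.02e-06). Etv5, an ETS factor induced through ERK, fell by 2.38 ± 0.17 in knockout-labelled cells (limma adjusted p = 8.94e-08) and by 1.24 ± 0.17 in wild-type cells (limma adjusted p = 6.87e-05). Under dexamethasone 5 of the 16 were lower in knockout-labelled than in wild-type cells and 0 higher, where 26.7% of all genes differed (14.3% higher, 12.4% lower). They included Jun (-0.65, limma adjusted p = 0.00164), Myc (-1.31, limma adjusted p = 0.0168), Etv5 (-0.56) and Egr1 (-1.71, limma adjusted p = 0.0438). With the stromal covariate the Myc, Etv5 and Egr1 differences did not pass, and that of Egr1 was 0.025.

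Sprouty, Spred and other inhibitors of the ERK pathway fell in 4 of 8 tested genes in knockout-labelled cells and in 0 of 8 in wild-type cells, with no rise in either (0 at an unadjusted p under 0.05 in wild-type cells). Of all genes tested 24.1% fell in knockout-labelled and 18.2% in wild-type cells. Spred2, which restrains RAF activation, averaged 1.76 ± 0.374 FPKM with dexamethasone and 5.60 ± 0.533 FPKM with vehicle in knockout-labelled cells (limma log2 difference -1.27 ± 0.20, adjusted p = 0.000179). In wild-type cells it averaged 4.67 ± 1.73 FPKM with dexamethasone and 5.52 ± 0.593 FPKM with vehicle (-0.26 ± 0.20, adjusted p = 0.352). Of 100 tested genes in all pathway lists, 0 passed limma's interaction term and 16 had an unadjusted p under 0.05, so the responses were not shown to differ between genotypes. Of the p38 and ZFP36 list, which holds mRNA decay factors and the cytokines they control, 1 of 11 rose and 5 fell in knockout-labelled cells, and 1 rose and 4 fell in wild-type cells. Zfp36l1, an mRNA decay factor, rose by 0.97 in knockout-labelled and by 0.83 in wild-type cells (limma adjusted p = 5.83e-05 and 0.000314). Zfp36 itself did not pass in either (limma adjusted p = 0.817 and 0.698). Tnf, the inflammatory cytokine, fell by 2.50 in knockout-labelled and by 2.11 in wild-type cells (limma adjusted p = 5.04e-08 and 3.97e-07). With dexamethasone it reached only 0.897 FPKM (knockout-labelled) and 0.874 FPKM (wild type), so Tnf passed the filter only through vehicle libraries.

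Of 11 tested among the other dual-specificity phosphatases, 2 rose and 3 fell in knockout-labelled cells, and 2 rose and 2 fell in wild-type cells, shares near the 39.1% and 30.1% of all genes that changed. Between genotypes 0 of 11 passed by limma in vehicle and 0 under dexamethasone, where 4.68% and 26.7% of all genes tested passed. In each treatment 2 of the 11 had an unadjusted p under 0.05. Ssh2, a slingshot phosphatase that acts on cofilin and not on MAP kinases, rose by 1.39 ± 0.13 in knockout-labelled cells (limma adjusted p = 1.15e-06) and by 1.64 ± 0.13 in wild-type cells (limma adjusted p = 3.86e-07). Dusp9, a cytoplasmic ERK phosphatase related to Dusp6 and Dusp7, averaged 0.415 ± 0.092 FPKM with dexamethasone and 1.46 ± 0.466 FPKM with vehicle in knockout-labelled cells. In wild-type cells it averaged 0.464 ± 0.183 FPKM with dexamethasone and 1.39 ± 0.296 FPKM with vehicle. It fell by 0.78 on the log2 scale in knockout-labelled cells (limma adjusted p = 0.000511) and by 0.71 in wild-type cells (limma adjusted p = 0.00159). Its dexamethasone libraries reached only 0.517 FPKM (knockout-labelled) and 0.730 FPKM (wild type), so Dusp9 passed the filter only through vehicle libraries. In vehicle 2 of the 100 pathway genes differed between genotypes, both higher in knockout-labelled cells. They were Il10, the anti-inflammatory cytokine (1.01 ± 0.15, limma adjusted p = 0.00103), and Map3k5, a stress-activated kinase (0.34, limma adjusted p = 0.0211). The Map3k5 difference did not pass with the stromal covariate (adjusted p = 0.128).

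**Figure D5:**
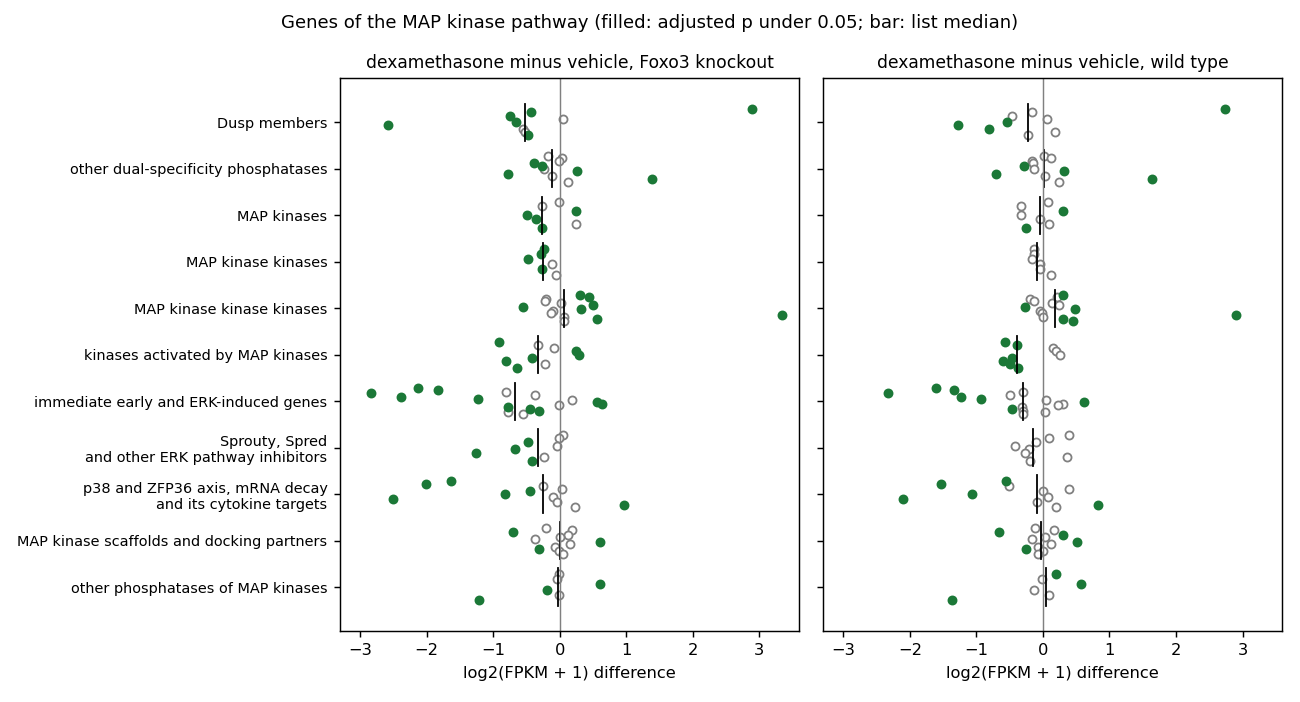
Log2 differences, dexamethasone minus vehicle (horizontal axis, log2(FPKM + 1) scale), of the tested genes of each MAP kinase pathway list (rows), with knockout-labelled cells in the left panel and wild-type cells in the right one, points for genes and bars for list medians. Most immediate early and ERK-induced genes lie left of 0, and their median is -0.67 in knockout-labelled and -0.31 in wild-type cells.

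The genes whose levels ran most closely with each phosphatase over the 16 libraries were found by Pearson's r of log2(FPKM + 1) among 10577 genes, as a description. Variation within and between groups was not separated in these r values. Dusp1 ran with Per1, a circadian repressor, and Cited2, a transcriptional coregulator (r = 0.99 and 0.989). Dusp4 ran with Igf2bp2, an mRNA-binding protein, and Nek6, a mitotic kinase (r = 0.981 and 0.979). Dusp6 ran with Myc and with the cell cycle inhibitor Cdkn2b (r = 0.978 and 0.97). Dusp2 ran with Degs1, an enzyme of ceramide synthesis (r = 0.984), and Dusp3 with Mrtfb, a coactivator of SRF (r = 0.978). For Dusp5 the closest was Rgs16, a regulator of G-protein signalling (r = 0.945), for Dusp7 Pogk (r = 0.964), for Dusp16 the ETS factor Ets2 (r = 0.888) and for Dusp22 the chromatin reader Zmynd11 (r = 0.835).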

How the data were processed

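Each library came with FPKM per gene as deposited by the authors. Per the submitters' processing notes, the tools were TopHat2 2.0.12, Bowtie2 2.2.3, DESeq2 and HTSeq 0.6.1, and the builds mm10 and GRCm38. No source used here gives the tools' roles, the annotation version or the strand setting. Identifiers were matched by GENCODE M21 on GRCm38 (54495 of 54532, leaving 37). From FPKM steps, 96.5% of positive values came out as whole reads within 0.05 reads.

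Values were tested as log2(FPKM + 1), pseudocount 1 FPKM, with limma 3.58.1 in R 4.3.3 (4 group means, intensity trend) in 5 comparisons, two-sided, threshold 0.05 after Benjamini-Hochberg adjustment over 11654 genes. FPKM of Foxo3 were tested by exact permutation. Python 3.11.15 (pandas 2.3.3, numpy 2.4.6, matplotlib 3.10.9) was used elsewhere. The steps were tested on simulated data. Members and gene lists were chosen with earlier results of these data known. Named genes are all members, Foxo3, the references Fkbp5 and Adgre1 and, per list and comparison, up to 4 called genes with the smallest adjusted p. Other genes (Lyz2, Zfp36 and genes under the stromal covariate) were named after their values were seen. Alternatives were pseudocounts of 0.1 and 5 FPKM, no filter or a mean of at least 5 FPKM, median-ratio scaling, quantile normalization, array weights, only the groups compared, a replicate block, a stromal covariate, 3 libraries left out, limma voom on recovered reads, and each library left out.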

Additional observations from a re-analysis of the deposited data

How the results depend on the processing

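A member value is here that of 1 gene in 1 comparison of 1 fit. Over all 5 comparisons, 691 member values from the fits without a library kept their side of the threshold, while 14 gained and 15 lost a call. Under other settings 477 kept it, 27 gained and 7 lost one. Members called ranged, without each library in turn, from 6 to 7 for the response in knockout-labelled cells, 3 to 5 in wild-type cells, 0 to 3 for genotype in vehicle, 3 to 4 for genotype under dexamethasone and 0 to 1 for the interaction. Counts over all genes tested were not set beside these ranges. With array weights the responses had 8 calls in knockout-labelled and 6 in wild-type cells. Calls over all genes tested then rose as well, to 6189 from 4562 in knockout-labelled and to 4669 from 3508 in wild-type cells. In vehicle, 6 of 9 passed with array weights and 6 without the 3 libraries. In the interaction 4 passed with array weights and 2 without the 3 libraries, where 1391 and 725 of all genes passed, against 15 in the main fit. Under dexamethasone the stromal covariate left 2 genotype calls, and the Egr1 difference reversed to 0.025. The cause was not tested. Genotype calls over all genes in vehicle numbered 4840 with array weights, 3958 without the 3 libraries and 244 with only the groups compared, against 545. Under dexamethasone they numbered 968 to 6388, against 3114.

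Of all response calls 38.4% were higher in knockout-labelled and 39.5% in wild-type cells, but 65.6% and 56.1% with limma voom, where the median of all genes moved to 0.12 in knockout-labelled cells (from -0.055). Dusp7 there was -0.33, Dusp3 -0.51 and Dusp16 -0.63 on that scale, and the 6 calls held. In most libraries the recovered reads summed to more than the sequencing depth to which the FPKM were scaled. Whether that excess moved the limma voom median was not tested. Quantile normalization gave 51.1% in knockout-labelled cells. Under dexamethasone 53.7% of the genotype calls were higher, but 67.5% with limma voom, and in vehicle 72.1%, but 57.3% with limma voom, 61.6% with quantile normalization.

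The labels do not say whether replicate numbers pair samples. Of 24 same-numbered pairs 8 correlated above 0.1 in their deviations, and 5 matched best with their own number. With 4 candidates for each match, these counts cannot show whether the samples are paired. With a replicate block 6 members passed in the knockout-labelled and 4 in the wild-type response, and Dusp16 lost its genotype call under dexamethasone (adjusted p = 0.05). The fewest reads per library stood behind Dusp5 (11 to 177), Dusp2 (28 to 117), Dusp4 (50 to 952) and Dusp16 (111 to 296).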
